A study of Mus musculus with 28 samples.

Results

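The comparison described here sets total mRNA of primary cortical neurons that express human TDP-43 with the A315T substitution (hTDP-43-A315T) against total mRNA of neurons that express the unmutated human protein (hTDP-43). It was made of every total mRNA library of cortical neurons with either genotype, which gave 3 hTDP-43-A315T and 3 hTDP-43 libraries, 6 of the 28 libraries in the series. The neurons came from cortices of C57BL/6J mouse embryos at day 16, were treated with 0.5 µM Ara-C on day 4 in vitro, which removes dividing cells, and were harvested on day 14. Each transgene was hemizygous and was driven by the mouse prion promoter (Prp-hTARDBP), and the A315T protein also carried a FLAG tag, so the groups differ in the tag and in the transgenic line as well as in the substitution. All 6 libraries keep the endogenous mouse Tardbp gene. Replicate numbers 1, 2 and 3 stand for culture dates of 17 June, 16 July and 29 July in the sample titles, with 1 culture of each genotype per date. Non-transgenic (WT) neurons had libraries from dates 2 and 3, and these 2 libraries are given as levels beside the comparison. Nothing in the labels tells how many embryos were pooled in a culture.

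TDP-43, encoded by Tardbp, is a mostly nuclear RNA-binding protein that prefers UG-rich sequence, regulates splicing and stability of many long neuronal transcripts, and travels with mRNA in axons and dendrites. It forms cytoplasmic inclusions in most cases of amyotrophic lateral sclerosis (ALS) and in a large class of frontotemporal dementia (FTD), and missense changes in its glycine-rich C-terminal domain, A315T among them, cause familial ALS. It also limits the amount of its own mRNA through the 3′ UTR. The comparison asks how mRNA abundance differs between neurons with the mutant and neurons with the unmutated human protein. The study describes the mutant protein as somewhat more abundant in these cultures, so the substitution, the amount of protein, the tag and the line cannot be told apart.

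The residue that the mutant transgene changes lies in the last part of the coding sequence. In mouse Tardbp (GRCm38, chr4:148618549-148618575, minus strand, coding exon), which has 414 codons, the 27 bases around the codon of residue A315T follow with that codon in capitals, because it is the residue by which the mutant transgene is named. The letters are those of the endogenous mouse gene, and the transgene sequences were not analysed here.
Tardbp A315T codon: atgaactttggtGCTtttagcattaac
The codon reads alanine in the mouse protein as well, the residue that A315T replaces.

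No gene passed the threshold between the genotypes. Of 11201 genes tested with edgeR's quasi-likelihood test, 0 were higher and 0 were lower at an adjusted p below 0.05 (0 and 0 percent), and the smallest adjusted p was 0.99995. At an unadjusted p below 0.05, 49 genes were higher (0.437 percent of those tested) and 70 were lower (0.625 percent) in hTDP-43-A315T neurons. DESeq2 also called 0 genes, with 110 at an unadjusted p below 0.05, and limma-voom with library weights called 0, with 517. With every gene of at least 1 read kept, 25507 genes were tested and 70 were called, of which 69 were lower and 59 were highest in hTDP-43 replicate 3. A replicate block for culture date without replicate 3 of both groups, an alternative added after the data were seen and with 1 residual degree of freedom, gave 15 called genes. The median log2 fold change (hTDP-43-A315T minus hTDP-43, here and throughout) over all genes was -0.00. The median standard error was 0.253 on the log2 scale, and the 95% interval lay within a 2-fold change in either direction for 76.7% of genes. This share was 23.2% for genes under a mean of 10 normalised reads (CPM, reads scaled to a common library total) and 96.4% for genes between 50 and 200 CPM. For most genes above 10 CPM the interval thus left no room for a 2-fold change, and for most genes below it the interval reached that size in at least 1 direction.

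The libraries held between 600385 and 6969578 reads on genes, an 11.6-fold range, and the replicates were unequal. hTDP-43 replicate 3 was the shallowest and stood apart from the others: its log2 CPM values correlated at 0.878 to 0.920 with those of the other 5 libraries, which correlated at 0.946 to 0.985 among themselves. Lars2, the mitochondrial leucyl-tRNA synthetase gene, took 14.1% of the reads of hTDP-43 replicate 3 and 3.24 to 7.49% in the other 5, more than any other gene. A count of 3 reads stood for 0.430 to 5.00 CPM, depending on the library. Protein-coding genes took 89.3% of the reads of hTDP-43 replicate 3 and 93.9 to 96.2% in the other 5. WT replicate 3, of the same date, was deeper at 3206139 reads. There Lars2 took 18.8% and protein-coding genes 86.9% of the reads, and its correlations with the 6 libraries were 0.856 to 0.922. In such bulk cultures, fewer cells of a type and less RNA per cell cannot be told apart.

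The count on the mouse Tardbp gene did not separate the genotypes. Tardbp (chr4:148612382-148627019) had 77.3, 57.4 and 51.9 CPM in hTDP-43 replicates 1 to 3 and 72.1, 65.5 and 57.0 CPM in hTDP-43-A315T. The WT libraries had 57.0 and 97.8 CPM. The groups overlapped, and the log2 fold change was 0.01 ± 0.20 (SE), with a 95% interval of -0.44 to 0.45. Reads of the human transgene can enter this count only where they align to mouse exons, so the value checks neither the labels nor the amount of transgene mRNA. Prnp, whose promoter drives both transgenes and which encodes the prion protein, had 318, 341 and 269.5 CPM in hTDP-43 neurons and 313, 371 and 377 CPM in hTDP-43-A315T neurons. Its log2 fold change was 0.18 ± 0.17 (SE), with an interval of -0.19 to 0.55, and the WT libraries had 337 and 154 CPM. For both genes a 2-fold difference in either direction lay outside the interval.

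The cultures had the markers of cortical neurons. All 11 pan-neuronal markers were tested, and their summed level was 4932 to 5655 CPM in hTDP-43 libraries and 5222 to 5443 CPM in hTDP-43-A315T libraries. The 12 markers of glutamatergic cortical neurons summed to 2310 to 2767 CPM and 2231 to 2449 CPM, and the 14 markers of GABAergic neurons to 1370 to 2146 CPM and 1378 to 1785 CPM. Of the 12 glutamatergic markers 3 had a positive log2 fold change, and their median was -0.05, or 0.01 without hTDP-43 replicate 3. The highest of them was Neurod6, a transcription factor of pyramidal neurons. Neurod6 had 55.8, 62.1 and 53.9 CPM in hTDP-43 and 70.1, 88.4 and 76.5 CPM in hTDP-43-A315T neurons. Its groups did not overlap, as in 3.3 percent of all genes tested, and its log2 fold change was 0.44 ± 0.18 (SE), but its adjusted p in the edgeR fit was 0.99995. Slc17a7, the vesicular glutamate transporter and the marker with the highest level per length in that list, had a log2 fold change of -0.01 ± 0.17 (SE).

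Markers of other cell types were also measured. The 11 astrocyte markers summed to 393 to 677 CPM in hTDP-43 and 308 to 549 CPM in hTDP-43-A315T libraries, and the 10 oligodendrocyte-lineage markers to 84.8 to 129.8 and 72.1 to 91.9 CPM. The highest sum of both lists was in hTDP-43 replicate 3 and the lowest hTDP-43-A315T astrocyte sum was in replicate 3, so these lists differed most at date 3. The 12 microglial markers summed to 7.99 to 15.97 CPM and 9.30 to 13.30 CPM, with C1qa at 0 reads in all 6 libraries. The 12 vascular and fibroblast markers summed to 9.96 to 13.17 and 7.97 to 12.40 CPM, with Cldn5 and Lum at 0. The 8 choroid plexus markers summed to 119 to 475 and 208 to 237 CPM, most of it from Kl, while the 9 progenitor and cycling markers reached 71.9 to 82.8 and 58.3 to 77.1 CPM. The 9 thalamic or striatal markers reached 338 to 551 and 236 to 425 CPM. The 551 CPM was in hTDP-43 replicate 3, where Lhx9 alone had 265.5 CPM, against 0.84 and 0.94 CPM in replicates 1 and 2. Lhx9 had 6.12, 1.55 and 1.79 CPM in hTDP-43-A315T and 446.8 CPM in WT replicate 3. Of 5 red blood cell genes, none was tested and the sums were at most 2.82 CPM. No member of any marker list was called in the edgeR fit with the filter on low counts, while Lhx9 was called lower without that filter. The part of these cells in any result was not tested.

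The most negative fold changes came from 1 library. Of the 50 genes with the most negative log2 fold change, 45 had their highest level in hTDP-43 replicate 3, and their median of -1.57 became -0.17 without it. The 50 most positive genes had a median of 0.96, and 1.08 without that library. Sspo, which encodes the secreted glycoprotein SCO-spondin, had 15.98, 14.1 and 3498 CPM in hTDP-43 replicates 1 to 3. It had 65.4, 10.5 and 60.1 CPM in hTDP-43-A315T neurons. Its log2 fold change of -4.67 ± 1.49 (SE) was the most negative of all genes tested, and it turned to 1.59 without hTDP-43 replicate 3. The negative value thus came from 1 of the 3 hTDP-43 libraries, while the other 5 libraries overlapped between the genotypes.

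Rfc1, the large subunit of the clamp loader of DNA replication, had 37.4, 18.8 and 2336 CPM in hTDP-43 and 56.2, 22.1 and 48.1 CPM in hTDP-43-A315T neurons. The log2 fold change was -4.21 ± 1.27 (SE), and 0.49 without hTDP-43 replicate 3. Ndufs7, a subunit of respiratory complex I, had 123, 133 and 4502 CPM against 149, 119 and 164 CPM. The fitted log2 fold change was -3.46 ± 1.05 (SE), and 0.18 without that library. Ttyh1, a membrane protein of the tweety family, had 407, 330 and 3549 CPM against 468, 317 and 289 CPM, with a log2 fold change of -1.998 ± 0.73 (SE), and -0.05 without hTDP-43 replicate 3. At dates 1 and 2 the within-date log2 differences of these 3 genes lay between -0.16 and 0.58. Gm7631 and Neil2, a DNA glycosylase of base excision repair, completed the 5 most negative changes, with 309 and 189.7 CPM in hTDP-43 replicate 3 and at most 6.40 CPM in any of the other 5 libraries. The log2 fold change of Gm7631 went from -4.35 to 2.99 without that library and that of Neil2 from -3.65 to 1.29. The 5 most positive changes were those of n-R5-8s1, a copy of 5.8S ribosomal RNA whose reads other copies can share, at 2.00, Syce2, a synaptonemal complex protein, at 1.75, Gm21092 at 1.51, Cox6a2 at 1.45 and Zic1, a zinc finger transcription factor, at 1.25.

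**Figure D1:**
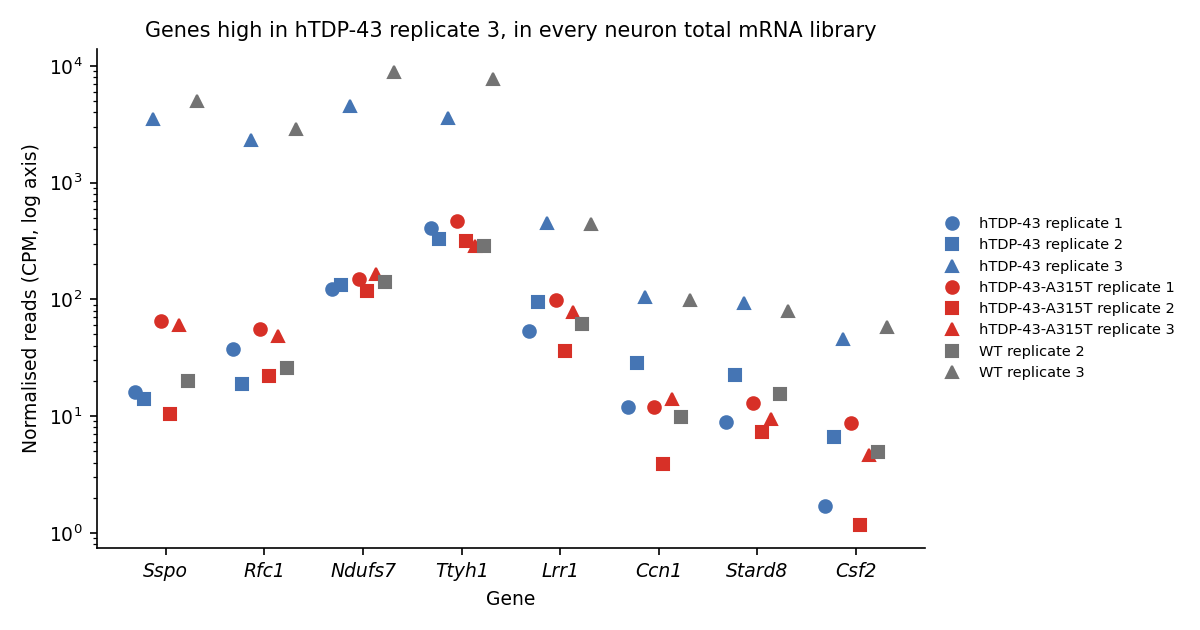
Normalised reads (CPM, log axis) of 8 genes in each of the 8 neuron total mRNA libraries, with hTDP-43 in blue, hTDP-43-A315T in red, WT in grey, and circles, squares and triangles for replicates 1, 2 and 3. In every gene the triangles of hTDP-43 and WT stand above all other libraries, and the triangle of hTDP-43-A315T does not (Sspo 3498 and 4971 against 60.1 CPM).

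The same genes were high in the WT library of the same date. In all, 49 of the genes tested were at least 4 times as high in hTDP-43 replicate 3 as in any of the other 5 libraries, with 10 reads or more, and they held 2.09% of its reads. For hTDP-43 replicate 2 there were 2 such genes and for each of the other 4 libraries there were 0. Of the 49, 45 (91.8%) also exceeded the same 5 libraries at least 4 times in WT replicate 3, and 0 did so in WT replicate 2. WT replicate 3 had 4971 CPM of Sspo, 2882 CPM of Rfc1, 8882 CPM of Ndufs7 and 7749.8 CPM of Ttyh1. In hTDP-43-A315T replicate 3, from the same date, the 49 genes were at a median of 0.717 times the highest of the 4 libraries of dates 1 and 2. Of the 49, 35 are protein-coding, and the others include the small non-coding RNAs Rny3 and Rmrp and 3 mitochondrial tRNA genes. Rny3, a Y RNA, had 368, 319 and 3378 CPM in hTDP-43 and 506, 753 and 504 CPM in hTDP-43-A315T neurons. The high levels were thus shared by the hTDP-43 and WT libraries of date 3 and were not seen in the hTDP-43-A315T library of that date, and whether genotype, culture or library preparation goes with them cannot be told apart with 1 library each.

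Ribosome footprints of the same cultures were available for these genes. Of the 49, 25 could be tested in footprints, 21 of them with a positive and 4 with a negative log2 fold change. In footprints 11 of the 49 were highest in hTDP-43 replicate 3, among them Tlx3 at 229.5 CPM (36 reads) and Ip6k3 at 414 CPM (65 reads). For both of these genes hTDP-43-A315T replicate 3, of the same date, was the next highest, at 164.6 and 306.2 CPM. Others of the 11 rested on few reads, such as Lrp4 (1 read) and Stard8 (2 reads). The share of all genes that were highest in that library is not given here. Of the 49, 0 were at least 4 times the other 5 libraries with 10 reads or more. The hTDP-43 replicate 3 footprint library held only 166064 reads, so that 3 reads stand for 18.1 CPM. Most of the 49 genes had fewer than 10 reads there and could not meet that rule. Sspo had 16 footprint reads in hTDP-43 replicate 3, which is 102 CPM, against 36.9 and 10.2 CPM in replicates 1 and 2 and 133, 36.7 and 43.9 CPM in hTDP-43-A315T neurons. Rfc1 had 51.0 footprint CPM in hTDP-43 replicate 3, between 51.0 and 95.2 CPM in the other hTDP-43 libraries and between 59.1 and 253 CPM in hTDP-43-A315T. The footprint log2 fold changes were 0.91 for Sspo, 0.79 for Rfc1, 0.39 for Ndufs7 and 0.62 for Ttyh1, all of the opposite sign to the total mRNA value. None of the 8367 genes tested in footprints was called by edgeR, and 217 had an unadjusted p below 0.05. With the replicate block 15 were called, among them Rfc1, Mid1ip1, D630039A03Rik and Gm25313, all higher in hTDP-43-A315T footprints.

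**Figure D2:**
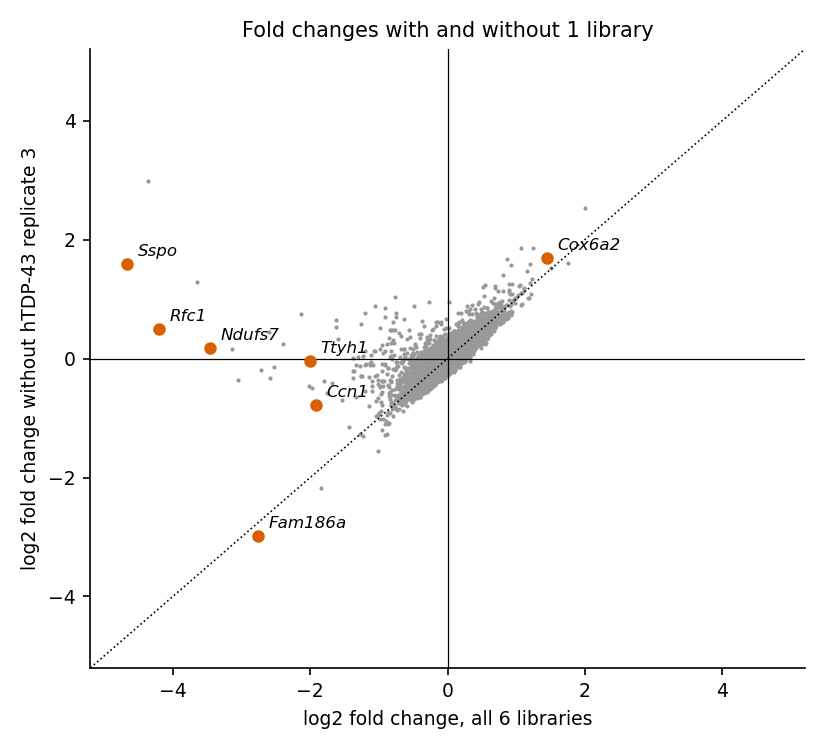
Log2 fold change of each of the 11201 genes tested, with all 6 libraries (x axis) and without hTDP-43 replicate 3 (y axis), with 7 genes named and a dotted line of equality. Most genes lie near the line, Sspo, Rfc1, Ndufs7 and Ttyh1 move from between -4.67 and -1.998 to between -0.05 and 1.59, and Fam186a (-2.76 and -2.99) stays near it.

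The genes that the study singled out were followed individually. The study chose the 14 on comparisons that include these libraries, so their direction here is not independent evidence. In neuron total mRNA the study, using DESeq, listed Ccn1, Stard8, Csf2 and Lrr1 as different between these same genotypes. Ttyh1 was listed there for another pair of genotypes, and the others came from its footprint comparisons. All 14 were tested, 0 were called, 12 had a negative log2 fold change, and the median was -0.90, against -0.05 without hTDP-43 replicate 3. With no filter on low counts 5 of the 14 were called lower, namely Sspo, Ttyh1, Lrr1, Ccn1 and Stard8. Ccn1 (Cyr61), a matricellular protein of the CCN family, had 11.9, 28.2 and 103.8 CPM in hTDP-43 and 11.9, 3.88 and 14.1 CPM in hTDP-43-A315T neurons, a log2 fold change of -1.91 ± 0.69 (SE). It was -0.78 without hTDP-43 replicate 3, and the lowest hTDP-43 library lay below the highest hTDP-43-A315T library. Stard8, a GTPase-activating protein, had 8.97, 22.6 and 93.8 CPM against 13.0, 7.36 and 9.47 CPM. Lrr1, a substrate receptor of a ubiquitin ligase, had 53.7, 94.1 and 455 CPM against 98.4, 36.0 and 77.8 CPM. Csf2, the cytokine GM-CSF, had 1.68, 6.59 and 45.9 CPM against 8.71, 1.16 and 4.60 CPM. In these 3 genes hTDP-43 was the higher genotype at dates 2 and 3 and the lower at date 1. Their log2 fold changes were -1.68, -1.38 and -1.06 with all libraries and -0.41, 0.02 and 0.89 without hTDP-43 replicate 3. WT replicate 3 had 99.4 CPM of Ccn1, 79.8 CPM of Stard8, 440.0 CPM of Lrr1 and 58.3 CPM of Csf2, levels close to those of hTDP-43 replicate 3.

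The genes chosen by the study for work on translation were not called in total mRNA. Camta1, a calmodulin-binding transcription activator, had 202, 144 and 186 CPM in hTDP-43 and 194, 160.5 and 136 CPM in hTDP-43-A315T neurons, with a log2 fold change of -0.13 ± 0.20 (SE) and an interval of -0.56 to 0.31. Mid1ip1 (Mig12), a microtubule-associated partner of MID1, had 39.1, 59.3 and 69.9 CPM against 80.1, 36.8 and 42.98 CPM. The fitted value was 0.02 ± 0.32 (SE), with hTDP-43-A315T higher at date 1 and lower at the other two. Dennd4a, an exchange factor for Rab GTPases, had 72.2, 64.9 and 141.7 CPM against 87.5, 58.1 and 43.2 CPM. The log2 fold change of -0.49 ± 0.33 (SE) became -0.13 without hTDP-43 replicate 3. The intervals of Camta1 and Mid1ip1 lay within a 2-fold change, and that of Dennd4a reached -1.21. Footprint log2 fold changes were -0.04 for Camta1, 1.22 for Mid1ip1 and -0.29 for Dennd4a. Pth1r, the receptor of parathyroid hormone, was low, with 5.61 to 21.96 CPM in hTDP-43 and 4.26 to 11.1 CPM in hTDP-43-A315T libraries. Its log2 fold change was -0.30 ± 0.50 (SE), with an interval of -1.41 to 0.82, and it was 0.15 without hTDP-43 replicate 3. Of the other genes singled out by the study, E2f5, Pip5kl1, D630039A03Rik and Gm25313 had log2 fold changes of 0.08, -0.05, -0.96 and -0.84. These became -0.05, 0.40, -0.37 and -0.36 without hTDP-43 replicate 3. The last of these was lower in hTDP-43-A315T at every date.

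Some genes differed in the same direction at all 3 dates. Among all genes tested, 1111 (9.92 percent) were higher and 983 (8.78 percent) lower in hTDP-43-A315T at every date, and in 370 (3.3 percent) and 301 (2.69 percent) all 3 hTDP-43-A315T libraries lay above or below all 3 hTDP-43 libraries. From the protein-coding genes of at least 10 CPM, the 10 with the smallest unadjusted p in each direction are described. They were picked on the values given here, which are a description, and each had an adjusted p of 0.99995 in the edgeR fit. Of the 10 higher genes 9 had groups that did not overlap, and of the 10 lower genes also 9.

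The higher genes reached log2 fold changes of 0.58 to 1.45, and 0.51 to 1.69 without hTDP-43 replicate 3. Nxph3, a neurexophilin that binds α-neurexins, had 25.5, 18.8 and 21.96 CPM in hTDP-43 and 35.6, 39.1 and 38.1 CPM in hTDP-43-A315T neurons. Its log2 fold change was 0.71 ± 0.21 (SE), with an interval of 0.25 to 1.17. Srprb, the membrane subunit of the signal recognition particle receptor, had 14.7, 15.1 and 9.98 CPM against 22.2, 26.7 and 25.8 CPM, a log2 fold change of 0.82 ± 0.24 (SE). In both genes every hTDP-43-A315T library was above every hTDP-43 library. Cox6a2, the muscle-type isoform of a cytochrome c oxidase subunit that some interneurons also express, had 3.79, 5.64 and 9.98 CPM against 9.27, 12.8 and 19.2 CPM. Its log2 fold change was 1.45 ± 0.43 (SE), and its footprint value of 1.14 had the same sign, but its groups overlapped between hTDP-43 replicate 3 and hTDP-43-A315T replicate 1.

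Sord, sorbitol dehydrogenase, had 10.1, 11.3 and 9.98 CPM in hTDP-43 and 15.01, 18.6 and 25.8 CPM in hTDP-43-A315T neurons. Lyrm4, a factor of mitochondrial iron-sulphur cluster assembly, had 10.1, 9.41 and 12.0 CPM against 14.8, 20.5 and 20.5 CPM. Tsc22d3, the glucocorticoid-induced leucine zipper protein, had 13.3, 16.9 and 17.97 CPM against 20.2, 27.1 and 27.1 CPM. Zfp768, Tigd5, Ecsit and Rgs10, a regulator of G protein signalling, made up the rest, with log2 fold changes of 0.93, 0.65, 0.58 and 0.67. WT replicate 2 had 40.0 CPM of Nxph3 and 25.2 CPM of Srprb, near the hTDP-43-A315T level, and WT replicate 3 had 10.8 and 13.6 CPM, near or below the hTDP-43 level. Of the 10 genes 7 could be tested in footprints, and 4 of these had a positive footprint log2 fold change.

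The lower genes reached log2 fold changes of -2.76 to -0.42. Fam186a had 4.07, 52.7 and 7.99 CPM in hTDP-43 and 2.78, 3.88 and 2.30 CPM in hTDP-43-A315T neurons. Its log2 fold change of -2.76 ± 0.86 (SE) came mostly from the high level in hTDP-43 replicate 2, and the WT libraries had 40.7 and 26.7 CPM. Avpi1, a gene induced by arginine vasopressin, had 18.2, 32.9 and 17.97 CPM against 9.82, 15.1 and 11.0 CPM, a log2 fold change of -0.95 ± 0.31 (SE). Trim39, a ubiquitin ligase of the tripartite motif family, had 54.4, 94.1 and 81.8 CPM against 48.0, 38.0 and 51.4 CPM, a log2 fold change of -0.70 ± 0.24 (SE). The hTDP-43 libraries were the upper group in each of the 3 genes, by the smallest margin at date 1 for Fam186a and Trim39.

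Zbtb16, a zinc finger transcription factor also called PLZF, had 61.1, 71.5 and 71.9 CPM in hTDP-43 and 54.1, 40.7 and 39.1 CPM in hTDP-43-A315T neurons. Arid5b, an AT-rich DNA-binding protein, had 28.2, 25.4 and 27.9 CPM against 20.2, 15.5 and 17.7 CPM. Both genes had no overlap between the groups. Ptprm, a receptor tyrosine phosphatase of cell adhesion, had 31.4, 35.8 and 37.9 CPM against 23.4, 21.7 and 23.3 CPM. Pcdh8, a protocadherin of synapses, had 245, 231 and 199.6 CPM against 197, 154 and 159 CPM, a log2 fold change of -0.42 ± 0.17 (SE). Nol4 and Ccn1 were also among the 10, and of the 9 lower genes that footprints could test, 6 had a negative footprint log2 fold change.

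**Figure D3:**
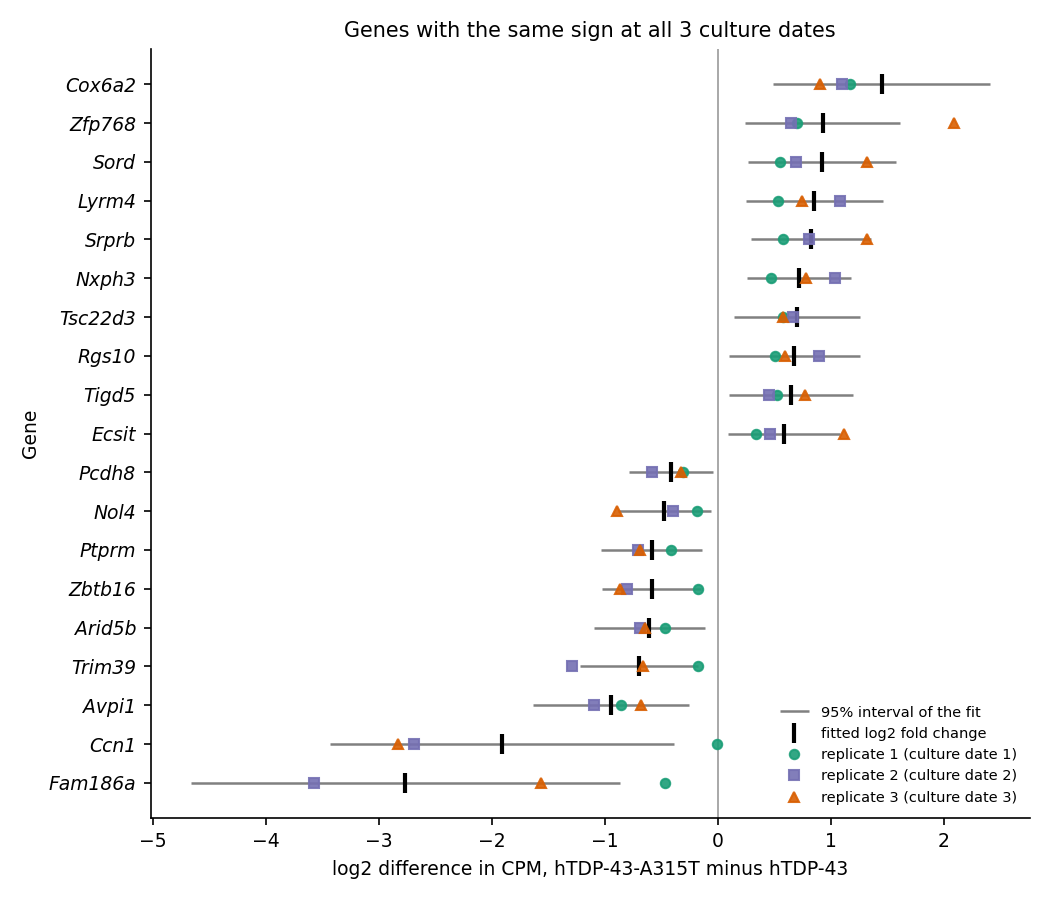
Log2 difference in CPM (hTDP-43-A315T minus hTDP-43) of 19 of the 20 protein-coding genes chosen for the same sign at all 3 dates, with a circle, square and triangle for replicates 1, 2 and 3, a black bar for the fitted log2 fold change and a grey line for its 95% interval. The points of each gene lie on 1 side of 0, with Ccn1 at -0.01 at date 1. The points are drawn towards 0 by a prior count of 2 that the fit does not use. The fitted value of Cox6a2 (1.45) lies above all 3 of its points, and with the replicate block it was 1.17. The reason was not tested.

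Sequence that TDP-43 is known to bind was looked for in the transcripts of these 20 genes. TG repeats of at least 6 units (12 bases or more, read on the sense strand of the longest protein-coding transcript in GENCODE M21) were found in 902 of 11014 protein-coding genes tested, or 8.19%. None of the 10 higher and none of the 10 lower genes held one, and 3 of 28 known TDP-43 target genes did (10.7%). These 3 are shown because a run of UG repeats is the classic binding sequence, with the repeat in capitals and GRCm38 positions.
Grn, chr11:102436753-102436764, plus strand, 3′ UTR: TGTGTGTGTGTG
Unc13a, chr8:71628395-71628406, minus strand, 3′ UTR: TGTGTGTGTGTG
Adipor2, chr6:119353551-119353562, minus strand, 3′ UTR: TGTGTGTGTGTG
The 902 genes with a repeat had a median log2 fold change of -0.04 and the 10112 without one of -0.00. Without hTDP-43 replicate 3 these medians were 0.01 and -0.00. A match is a description of the letters in these transcripts, and introns were not searched.

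Known TDP-43 target mRNAs were taken as a list of 28 genes, which includes Camta1, Dennd4a and Mid1ip1 from the study itself, and all 28 passed the filter on low counts. Of these, 0 were called and 0 had an unadjusted p below 0.05. In each direction 1 had non-overlapping groups, against 3.3 percent (higher) and 2.69 percent (lower) of all genes tested. The median log2 fold change was -0.14, or -0.08 without hTDP-43 replicate 3. Stmn2, a stathmin of axon growth whose splicing TDP-43 guards in human neurons, had 802, 765 and 633 CPM in hTDP-43 and 727, 837 and 891 CPM in hTDP-43-A315T neurons. This gave a log2 fold change of 0.15 ± 0.17 (SE), with an interval of -0.22 to 0.52. Unc13a, a vesicle priming protein and a genetic risk factor of ALS, had 463, 475 and 563 CPM against 469, 397 and 406 CPM, a log2 fold change of -0.24 ± 0.17 (SE). Nefl, the light neurofilament subunit, had a log2 fold change of 0.21 ± 0.20 (SE), and Eif4h, the target with the highest level per length, of 0.02 ± 0.20 (SE). The synaptic adhesion genes Nrxn3, Nlgn1 and Cntnap2, with very long introns, had log2 fold changes of -0.36, 0.07 and -0.19. Adipor2, an adiponectin receptor, had 95.1, 97.8 and 101.8 CPM against 93.2, 88.0 and 83.9 CPM, the target whose groups lay apart in the lower direction. Of the 28 intervals, 25 lay within a 2-fold change.

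ALS and FTD genes and RNA-binding relatives of TDP-43 had medians near 0. Of 31 tested ALS and FTD genes, 0 were called and the median log2 fold change was -0.03. Sod1, superoxide dismutase, had a log2 fold change of 0.05 ± 0.23 (SE) and C9orf72 of 0.24 ± 0.22 (SE). Vcp, a segregase of protein quality control, had 119, 117 and 106 CPM against 105, 104 and 105 CPM, and Dctn1, the largest dynactin subunit, had 489, 562 and 477 CPM against 435, 416 and 454 CPM. These 2 of the 31 genes were lower in hTDP-43-A315T without overlap, against 2.69 percent of all genes tested. Their log2 fold changes were -0.13 ± 0.15 and -0.23 ± 0.16 (SE). Of 43 RNA-binding relatives and splicing factors, 0 were called, and the median was -0.00, from Hnrnph1 at -0.44 (0.11 without hTDP-43 replicate 3) to Hnrnpa3 at 0.21.

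Synaptic and channel genes had medians slightly below 0, and the within-date medians were largest at date 3. Of 28 genes of glutamate receptors and the postsynaptic density 3 had a positive log2 fold change, and the median was -0.18. Of 24 presynaptic genes 5 were positive, with a median of -0.14, and of 25 ion channel genes 4 were positive, with a median of -0.13. Over all genes tested, 5478 of 11201 were positive and the median was -0.00. No gene of the 3 lists was called and none had an unadjusted p below 0.05. Without hTDP-43 replicate 3 the medians were -0.08, -0.11 and -0.05, and the within-date medians were 0.05, -0.05 and -0.54 at dates 1 to 3 for the postsynaptic list. They were -0.02, -0.10 and -0.31 for the presynaptic list and 0.12, 0.09 and -0.62 for the channels, which were thus higher in hTDP-43-A315T at 2 of the 3 dates. Gria3, an AMPA receptor subunit, had 59.9, 37.6 and 67.9 CPM in hTDP-43 and 46.3, 41.9 and 23.3 CPM in hTDP-43-A315T neurons, the lowest log2 fold change of the first list at -0.56 ± 0.29 (SE). Kcna2, a voltage-gated potassium channel, was the lowest of the channels at -0.61 ± 0.33 (SE), or -0.26 without hTDP-43 replicate 3. In both genes the groups overlapped. Camk2a, the α subunit of the kinase CaMKII, had 773, 903 and 996 CPM in hTDP-43 and 784, 729 and 592 CPM in hTDP-43-A315T neurons, a log2 fold change of -0.35 ± 0.18 (SE). Bsn, the active-zone scaffold bassoon, had 921, 849 and 1529 CPM against 954, 731 and 709 CPM. The fitted value of -0.47 ± 0.24 (SE) became -0.15 without hTDP-43 replicate 3. Dnm1, the dynamin of vesicle recycling, had 802, 817 and 739 CPM against 689, 691 and 629 CPM. It was 1 of 3 of the 24 presynaptic genes that were lower without overlap, against 2.69 percent of all genes tested. Its log2 fold change was -0.24 ± 0.15 (SE), or -0.28 without hTDP-43 replicate 3. Vamp2, the presynaptic gene with the highest level per length, was at 0.04 ± 0.15 (SE), and Cacna1a, the P/Q-type calcium channel, at -0.34 ± 0.17 (SE).

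The genomic length of a gene also moved with hTDP-43 replicate 3. Protein-coding genes under 10 kb had a median log2 fold change of 0.05 and the 180 genes over 500 kb had -0.11. At date 3 the within-date medians were 0.47 and -0.60, whereas at date 1 they were -0.07 and 0.12. Without hTDP-43 replicate 3 the medians were -0.02 and -0.01. The part of gene length in the medians of the synaptic and channel lists was not tested.

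**Figure D4:**
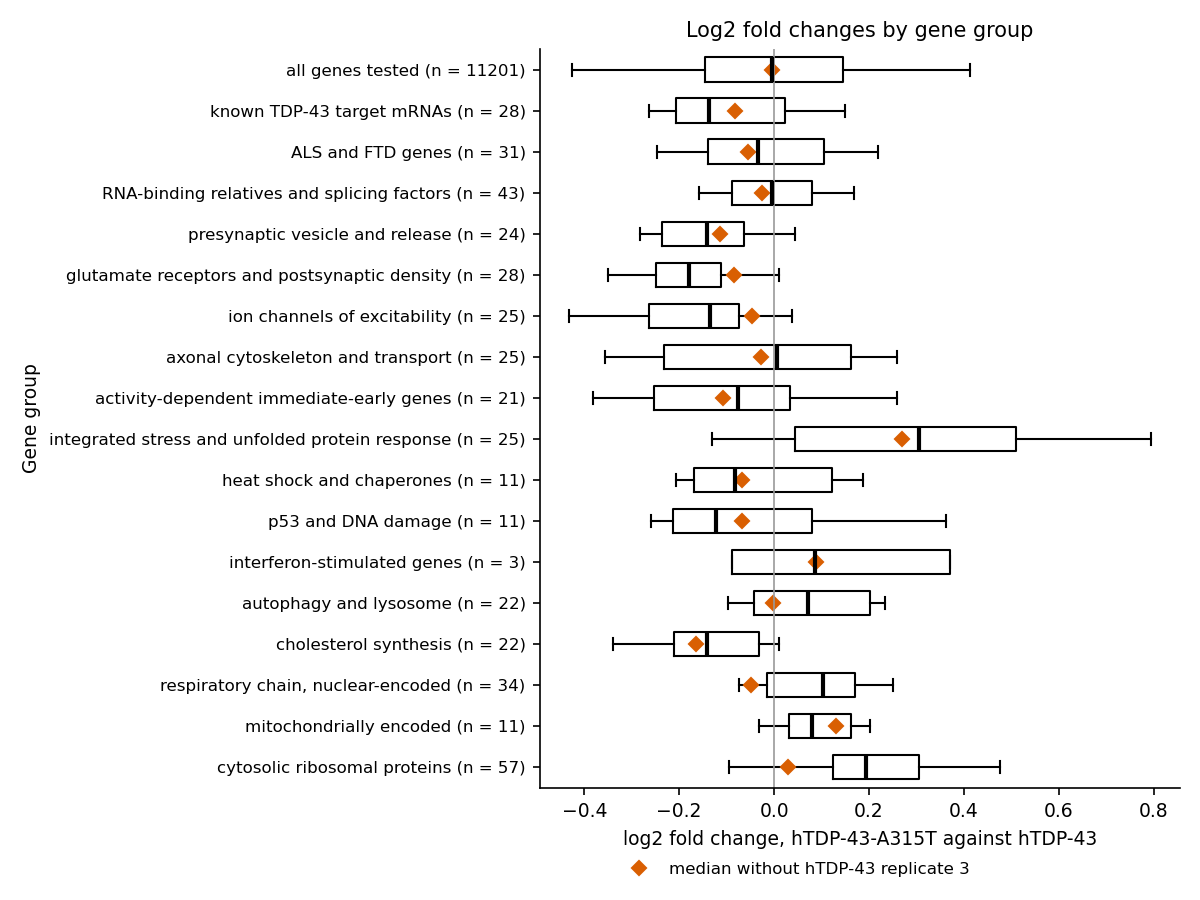
Log2 fold change by gene group, with boxes for the quartiles, whiskers for the 5th and 95th percentiles, a black line for the median of the tested members and an orange diamond for the median without hTDP-43 replicate 3. Group medians lie between -0.18 and 0.31, and the diamonds of the ribosomal protein (0.03) and respiratory chain (-0.05) lists leave the black lines at 0.19 and 0.10.

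Genes of the integrated stress response and the unfolded protein response had the highest median of the groups. Amino acid shortage and misfolded protein raise the transcription factor ATF4, which induces genes of amino acid synthesis and transport. Of 25 tested members 20 had a positive log2 fold change. At all 3 dates 9 were higher, against 9.92 percent of all genes, and 1 was lower. The median was 0.31, or 0.27 without hTDP-43 replicate 3 and 0.26 with the replicate block. The fit without that library keeps date 3 in hTDP-43-A315T only, so date and genotype cannot be told apart in the 0.27. No member passed the adjusted threshold, 1 had an unadjusted p below 0.05, and 0 had groups that did not overlap. The within-date medians were 0.03, 0.13 and 0.52 for dates 1 to 3, so date 1 gave almost no difference.

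The members with the highest values included known ATF4 targets. Chac1, which degrades glutathione, had 25.1, 50.8 and 39.9 CPM in hTDP-43 and 37.6, 67.8 and 84.4 CPM in hTDP-43-A315T neurons, a log2 fold change of 0.79 ± 0.34 (SE) and the only one of the list with an interval above 0. Atf5, a transcription factor related to ATF4, had 74.3, 125.1 and 101.8 CPM against 81.9, 176 and 205 CPM, a log2 fold change of 0.64 ± 0.32 (SE). Phgdh and Psat1, enzymes of serine synthesis, had 6.17, 12.2 and 14.0 CPM against 7.04, 19.0 and 25.1 CPM, and 39.1, 69.6 and 61.9 CPM against 40.0, 95.4 and 112.8 CPM. In these 4 genes hTDP-43-A315T was higher within each date, but date 1 was the lowest of both genotypes, so the groups overlapped. Trib3, a pseudokinase induced by ATF4, had a log2 fold change of 1.08 ± 0.64 (SE), and Atf4 itself of 0.27 ± 0.23 (SE). WT replicate 2 had 121.7 CPM of Atf5 and 48.4 CPM of Chac1, close to hTDP-43 replicate 2, and WT replicate 3 had 68.7 and 29.1 CPM, below both transgenic libraries of date 3. In footprints of the same cultures, 24 members had a median log2 fold change of 0.35, with 0.57 for Atf5 and 0.83 for Chac1.

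Other members of the list, named after their values were seen, were near or below 0. Hspa5, the chaperone BiP, had 126, 109 and 128 CPM against 103, 134 and 104 CPM, a log2 fold change of -0.09 ± 0.17 (SE). Hsp90b1 and Pdia6, also of the endoplasmic reticulum, were at -0.13 and -0.15, and Sdf2l1, a cofactor of BiP, at -0.64 ± 0.32 (SE). The cytosolic heat shock and chaperone list had 11 tested members, 0 called and a median of -0.08. The p53 list had 11, 0 called and a median of -0.12. Of 19 interferon-stimulated genes 3 were tested, with 0 called and a median of 0.09.

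**Figure D5:**
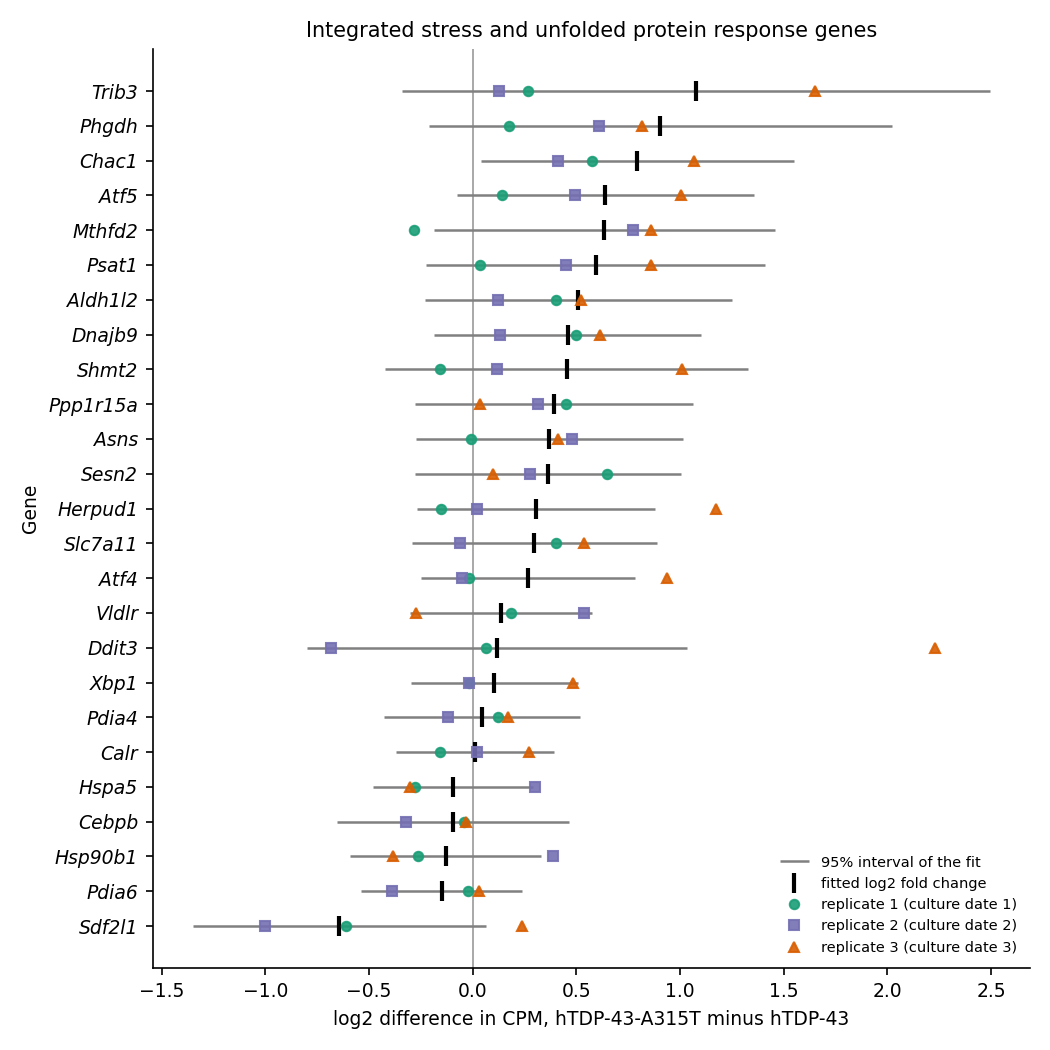
Log2 difference in CPM (hTDP-43-A315T minus hTDP-43) of the 25 tested genes of the integrated stress and unfolded protein response, drawn as in the plot of genes with 1 sign at all dates. Trib3, Phgdh, Chac1 and Atf5 have the highest fitted values (0.64 to 1.08), Sdf2l1 has the lowest (-0.64), and every interval except that of Chac1 includes 0.

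Metabolic and housekeeping lists were compared in the same way. Cytosolic ribosomal protein genes had a positive log2 fold change in 50 of 57 members and a median of 0.19, but 0.03 without hTDP-43 replicate 3, and within-date medians of -0.17, 0.16 and 0.94. Rpl32 had 64.9, 78.1 and 37.9 CPM in hTDP-43 and 70.1, 121.3 and 112.6 CPM in hTDP-43-A315T neurons, and its log2 fold change of 0.69 ± 0.27 (SE) was the highest of the list. Nuclear-encoded respiratory chain genes had a median of 0.10, and -0.05 without hTDP-43 replicate 3. Cholesterol synthesis genes, targets of SREBP2, had 5 of 22 members positive and a median of -0.14, which was -0.16 without that library. Of the 22, 6 were lower at all 3 dates, against 8.78 percent of all genes, and 0 were called. Mvk, mevalonate kinase, had 95.5, 101.6 and 95.8 CPM in hTDP-43 and 90.1, 72.9 and 88.8 CPM in hTDP-43-A315T neurons. Its log2 fold change was -0.22 ± 0.17 (SE). It was 1 of 2 of the 22 members that were lower without overlap, against 2.69 percent of all genes tested.

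Activity-dependent and mitochondrial genes varied widely between dates. Fos, an immediate-early transcription factor, had 62.0, 25.4 and 20.0 CPM in hTDP-43 and 48.2, 26.0 and 14.8 CPM in hTDP-43-A315T neurons, and Nptx2, a secreted pentraxin, had 184.5, 31.0 and 59.9 against 132.0, 66.7 and 30.2 CPM. The list of 21 tested activity-dependent genes had a median log2 fold change of -0.08 and 0 called. mt-Nd1, a mitochondrially encoded subunit of complex I, had 1783, 524 and 956 CPM against 1919.5, 1214 and 821 CPM. The 11 tested mitochondrially encoded genes had a median of 0.08, with within-date medians of 0.10, 1.12 and -0.46. Axonal cytoskeleton genes had a median of 0.01 over 25 members, with Stmn1 at 0.37 ± 0.20 (SE) and Map1a at -0.39 ± 0.20 (SE), and 22 autophagy and lysosome genes a median of 0.07, with none called.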

How the data were processed

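Libraries were total mRNA (poly(A)-selected, fragmented, with no cycloheximide before lysis) and ribosome footprints of the same cultures, sequenced on a HiSeq2500. The authors trimmed adapters with cutadapt 1.8.1, removed reads of non-coding RNA with Bowtie2, aligned the rest to GRCm38 with TopHat2, allowing more mismatches for longer reads, and counted reads on exons of Ensembl genes with featureCounts 1.4.4. The deposited values are raw counts per gene, 45513 genes per library. No strand setting is given in the sources used here, so reads of overlapping or antisense genes cannot be told apart, and human transgene reads cannot be separated from mouse Tardbp. The study tested with DESeq, and DESeq2 1.42.0 is an alternative here.

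The 6 counts were tested in R 4.3.3 with edgeR 4.0.16 (quasi-likelihood, TMM, genes kept by a minimum count of 10 and a total of 15, Benjamini-Hochberg adjustment, two-sided, threshold 0.05), and footprints in a fit of their own. Intervals are 95% from the quasi-likelihood standard error. CPM use TMM scaling over 8 neuron total mRNA libraries, and within-date log2 differences use a prior count of 2. Levels are compared between genes only as RPKM computed from these counts and the exon lengths in the files. limma 3.58.1 was an alternative. Gene positions came with the deposited counts. Symbols, gene types and the positions of the printed sequences came from GENCODE M21, which held 44671 of the 45513 genes.

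Replicate numbers mark shared culture dates in the titles. Deviations of same-numbered libraries correlated at 0.0857, 0.149 and -0.0895, and those of different numbers at -0.379 to 0.281. Without a block, the p-values measure the spread between libraries of the same genotype, in which date, culture and library preparation cannot be told apart. Depth limits cover counting error only. Named genes were Tardbp and Prnp, the study's own genes, the member of each list with the highest RPKM and those with the highest and lowest log2 fold change, the 10 genes per direction described above, and the 5 largest changes per direction. Other list members were named after their values were seen. The members and lists were chosen with earlier results of these data known. Alternatives were other scalings, filters, tools, left-out libraries and the replicate block. The other 14 libraries were not analysed here. Some genes are not reported here.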

Additional observations from a re-analysis of the deposited data

How the results depend on the processing

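The count of 0 called genes held under other scalings and tools, a filter at 10 CPM, protein-coding genes only, all 8 neuron libraries, and without any 1 library or replicate number (0 called in each, with 41 to 386 at an unadjusted p below 0.05, except 517 with limma-voom). The replicate block also called 0, with 72. It became 70 with no filter on low counts and 15 under the replicate block without replicate 3 of both groups, an alternative chosen after seeing the data. Of these, Cdr1, Gm25732, Rny3, Rny1, Sspo, Insm2, n-R5-8s1, mt-Rnr1, mt-Nd1, mt-Nd5, mt-Nd6 and mt-Cytb were higher and Ankrd60, Fam186a and Prrc1 lower, and 5 of the 15 had the opposite sign with all 6 libraries: Sspo (1.48), mt-Nd5 (0.69), Rny3 (0.83), Rny1 (0.71) and mt-Rnr1 (0.76) turned from negative to positive. These 5 genes had their highest level of the 6 libraries in hTDP-43 replicate 3, which that fit leaves out. The cause of the change of sign was not tested. The replicate block with all 6 libraries changed no call in total mRNA, and in footprints it gave 15 called genes against 0, Mid1ip1, D630039A03Rik, Gm25313 and Rfc1 among those named.

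The Tardbp log2 fold change ranged from -0.085 to 0.23 with libraries left out. List medians ranged likewise from -0.11 to 0.02 for ALS and FTD genes, -0.49 to 0.22 for activity-dependent genes, -0.18 to 0.17 for heat shock genes, -0.24 to 0.026 for p53 genes (-0.034 without hTDP-43-A315T replicate 3), -0.19 to 0.30 for interferon-stimulated genes and -0.23 to -0.013 for cholesterol synthesis. limma-voom gave -0.37 for activity-dependent, 0.036 for p53, -0.15 for interferon-stimulated and -0.26 for cholesterol genes. The replicate block without replicate 3 gave 0.052 for p53 and -0.14 for interferon-stimulated genes. Over all alternatives 341 list medians moved by less than the spread between dates and 19 by more. The shallowest total mRNA library, with 600385 reads, limits all low genes: 3 counts there are 5.00 CPM.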
